A study of Homo sapiens with 9 samples.

Results

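The peaks described here lie on small nucleolar RNAs (snoRNAs) and small Cajal body-specific RNAs (scaRNAs). A peak was a member when at least 1 nt of it overlapped, on the same strand, a gene that GENCODE types as snoRNA or scaRNA on GRCh38. This held for 25764 of the 2478204 merged peaks in 54 libraries of antibody-barcode eCLIP (ABC). By gene symbol, 12626 of these peaks lay on C/D genes (SNORD), 10391 on H/ACA genes (SNORA), 2350 on scaRNA genes (SCARNA) and 397 on genes with none of these symbols. The rule used position only and no measured value.

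ABC labels the RNA crosslinked to a protein with a barcode brought in on the antibody, so that several RNA-binding proteins (RBPs) can be read from a single lysate. The K562 10plex set held 3 replicate pools of 10 RBPs and the HEK293 10plex set 2 replicate pools of the same 10 RBPs, which gave 50 libraries. Singleplex ABC was done for RBFOX2 in HEK293 cells (2 libraries) and for SLBP in K562 cells (2 libraries). All cells were untreated and UV-crosslinked. K562 is a human erythroleukemia line, and HEK293 a human embryonic kidney line that the titles call HEK293T and the study's text HEK293XT. The libraries of a pool share 1 lysate and share their total of reads, so they are not independent of each other. Nothing in the labels says whether replicate pools came from separate cultures, and p-values therefore measure only the spread between these samples.

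The cell line field of the HEK293 10plex samples reads K562, against their titles, and the titles were followed. Peaks on 7 genes typical of K562 cells, such as the globin genes HBG1 and HBG2, were called in 30 of 30 K562 10plex libraries and in 2 of 20 HEK293 10plex libraries. Peaks on 3 genes typical of HEK293 cells (PAX2, NEFL, NEFM) were called in 19 of 20 HEK293 and 6 of 30 K562 libraries. No 2 libraries had the same peak list. The 10plex libraries held 938 to 206869 merged peaks, and an RBP took 0.865% to 36.8% of the reads of its pool.

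C/D snoRNAs guide ribose methylation and H/ACA snoRNAs guide pseudouridylation, mostly of ribosomal RNA in the nucleolus. They are named after short conserved boxes and are bound by core proteins, among them fibrillarin for the C/D and dyskerin for the H/ACA type. ScaRNAs carry C/D boxes, H/ACA boxes or both, reside in Cajal bodies and guide the same modifications of the spliceosomal small nuclear RNAs. Most human snoRNAs and scaRNAs are cut out of introns of host genes. None of the 11 RBPs profiled here is one of the core proteins of these particles. DDX3 (an RNA helicase) and EIF3G (a subunit of an initiation factor) act in translation initiation. IGF2BP2, LIN28B, PUM2, FAM120A and ZC3H11A bind mRNAs, and ZC3H11A is known for mRNA export. SF3B4 belongs to the U2 and PRPF8 to the U5 small nuclear ribonucleoprotein of the spliceosome. RBFOX2 is a splicing regulator that recognizes GCATG, and SLBP binds the stem-loop of histone mRNAs.

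The genes below had a peak in all 50 10plex libraries and show where in the RNA those peaks met. They are written 5′ to 3′ as DNA from the GRCh38 gene, with capitals for the bases that were under a peak in every one of the 50 libraries. SNORD52 and SNORD34 are C/D genes, SNORA75 is an H/ACA gene, and SCARNA4 is a scaRNA gene. SNORD52 lies in SNHG32 at chr6:31837076-31837142 on the plus strand and overlaps a host exon. SNORD34 lies in RPL13A at chr19:49490904-49490974 on the plus strand and overlaps a host exon. SNORA75 lies in NCL at chr2:231455800-231455936 on the minus strand and overlaps a host exon. SCARNA4 lies in an intron of KHDC4 at chr1:155925958-155926085 on the minus strand.
SNORD52: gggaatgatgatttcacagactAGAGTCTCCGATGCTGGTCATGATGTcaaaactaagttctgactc
SNORD34: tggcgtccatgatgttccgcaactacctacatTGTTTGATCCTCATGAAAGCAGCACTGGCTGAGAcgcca
SNORA75: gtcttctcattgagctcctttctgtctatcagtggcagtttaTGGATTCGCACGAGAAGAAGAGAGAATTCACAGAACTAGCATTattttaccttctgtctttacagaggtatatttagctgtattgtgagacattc
SCARNA4: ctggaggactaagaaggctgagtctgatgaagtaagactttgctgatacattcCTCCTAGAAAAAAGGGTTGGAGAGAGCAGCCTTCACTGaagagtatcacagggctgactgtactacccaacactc
In each of them the libraries of all 10 RBPs and both cell lines met in a single run of bases. That run was 26 of 67 bases in SNORD52, 34 of 71 in SNORD34, 43 of 137 in SNORA75 and 38 of 128 in SCARNA4. The first and the last bases of each gene were outside it. Not every gene with a peak in all 50 libraries had such a run. SNORD3A and SNORD100 did, but SCARNA2 had 0 of 420 bases under a peak in every library. In SNORA77B the 27 shared bases were spread in pieces over bases 47 to 83. In SNORA44 it was 39 bases over 34 to 76, and in SCARNA7 71 bases over 165 to 281.

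The letters of the boxes set the symbol classes apart. CTGA, the letters of box D, was found in the last 15 bases of 87.2% of the 313 annotated C/D genes and of 3.74% of the 214 annotated H/ACA genes, searched on the strand of the gene. ACA was found in the last 8 bases of 82.2% of the H/ACA genes and of 6.07% of the C/D genes. Among the genes with a peak in a 10plex library, the shares were 88.0% of 142 C/D genes for CTGA and 91.7% of 120 H/ACA genes for ACA. These matches describe the letters in the gene and are no evidence of a bound site.

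Of 991 annotated snoRNA and scaRNA genes, 304 had a peak in at least 1 of the 54 libraries. These were 143 of 313 C/D genes, 121 of 214 H/ACA genes, 23 of 24 SCARNA genes and 17 of 440 genes without such a symbol. In 150 of them the gene overlapped an exon of a host gene, 140 lay in a host intron and 14 lay outside other genes. A 10plex library had peaks on 151 to 269 of these genes. Peaks were called on 120 genes in all 50 10plex libraries (77 C/D, 39 H/ACA, 3 SCARNA and 1 unnamed), on 203 genes in at least 45 libraries and on 12 genes in 1 library. The imprinted C/D clusters were nearly empty in both lines. SNORD113 (9 genes), SNORD115 (50 genes) and SNORD116 (33 genes) had no peak, and SNORD114 (30 genes) had 1 peak in 1 K562 library, on SNORD114-14.

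Members were high and shared. A member had a median of 45.6 reads per peak as the mean over K562 10plex libraries and 43.8 over HEK293 libraries, where all other peaks had 4.33 and 4.45. These reads were recovered from the deposited fold and P of each peak, and where P lay past the end of its scale, as for 0% to 16.3% of the members of a K562 and 0.712% to 35.5% of those of a HEK293 library, they are the fewest that give it and thus a lower bound. The median length was 38.1 nt for members and 38.1 nt for other peaks in K562 cells, and 40.9 and 39.8 nt in HEK293 cells. For each peak, the number of the other 9 libraries of the pool with an overlapping peak was then counted. A member overlapped a peak of 8.28 of the other 9 libraries in K562 pools and 8.17 in HEK293 pools on average, and other peaks 1.86 and 2.33. In K562 pools, 70.8% of members were met in all 9 and 0.486% in none, where 4.14% of other peaks were met in all 9 and 42.5% in none. In HEK293 pools these shares were 64.9% and 0.424% of members and 3.998% and 33.4% of other peaks. The difference in the number of libraries was 6.42 in K562 cells (SD over RBPs 0.936, n = 10), from 4.55 for PUM2 to 7.40 for PRPF8. It was 5.85 in HEK293 cells (SD 0.978, n = 10), from 3.86 for PUM2 to 7.10 for RBFOX2. It was above 0 for all 10 RBPs in both lines (exact two-sided sign flips over 10 RBPs, p = 0.00195, the smallest possible). An overlap counts for both libraries, so the 10 differences are not independent, while the test takes them as if they were. Among peaks with at least 20 reads on both sides, the difference was 3.68 libraries in K562 and 3.79 in HEK293 cells.

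The libraries of a pool were also alike in how many reads each snoRNA or scaRNA gene had. Over the genes with a peak in both libraries, Pearson's r of the log reads between different RBPs of 1 K562 pool had a median of 0.904 (135 pairs). It was 0.932 between pools for the same RBP (30 pairs) and 0.868 between pools for different RBPs (270 pairs). In HEK293 cells the medians were 0.910 (90 pairs), 0.897 (10 pairs) and 0.837 (90 pairs), and the same RBP in the other cell line gave 0.833 (60 pairs). These values describe genes that share their host, length and abundance across libraries, and genes are not replicates. SNORD34, in a host gene for a ribosomal protein, shows the range. In K562 replicates 1, 2 and 3 it had 928, 1499 and 795 reads in the SF3B4 libraries, 791, 918 and 876 in the RBFOX2 libraries and 82, 102 and 82 in the PUM2 libraries. Every one of the 50 10plex libraries had at least 46 reads on it, and the reads were lower bounds in 15 of 30 K562 and 13 of 20 HEK293 libraries.

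The share of peaks that lay on snoRNAs and scaRNAs differed widely between RBPs, and PUM2 had the highest share in every pool. In K562 cells it was 29.3%, 18.8% and 21.3% of the PUM2 peaks in replicates 1, 2 and 3, a mean of 23.1% ± 5.52 (SD, n = 3) against 3.85% over the other 9 RBPs. The difference of 19.3 percentage points gave an adjusted p of 0.01 (exact permutation of RBP labels within pools, p = 0.001, the smallest possible with 1000 arrangements, Benjamini-Hochberg over 10 RBPs). In HEK293 cells it was 9.89% and 8.48%, a mean of 9.19% against 1.31%, and the exact permutation p of 0.01, the smallest that 100 arrangements allow, became 0.1 after adjustment. With any 1 of the K562 pools left out, the PUM2 difference was 16.6 to 21.0 points, and 2 pools cannot give an adjusted p below 0.1 for 1 RBP. None of the other 9 RBPs passed the test in either line. In K562 cells EIF3G had 11.4% ± 3.89 (n = 3; exact permutation, adjusted p = 0.38) and ZC3H11A 6.68% ± 2.33, whereas FAM120A had 1.17% ± 0.255 and PRPF8 0.994% ± 0.0731.

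The order of these shares was nearly the order of library size turned over. PUM2 had the fewest peaks of each pool, and the number of peaks on snoRNAs and scaRNAs itself was lowest for PUM2, with 273 to 288 in K562 libraries. As a mean it was highest for RBFOX2 in K562 cells, with 664 to 737, and for IGF2BP2 in HEK293 cells, with 514 and 628. Across the 10 RBPs of a pool, Spearman's rho between the number of merged peaks and the share on these genes was −0.96, −0.96 and −0.98 in the K562 pools and −0.99 in HEK293 replicate 1, and in HEK293 replicate 2 the order was turned over completely. These are descriptions over libraries that share a pool, and the part of depth in the share was not tested. Counted in reads, the picture was less uneven. In K562 cells 32.6% ± 2.06 (SD, n = 3) of the PUM2 reads in peaks lay on snoRNAs and scaRNAs, 32.1% ± 2.77 of the SF3B4 reads and 23.6% ± 4.46 of the RBFOX2 reads. PRPF8 had 7.41% ± 0.492 and FAM120A 7.03% ± 2.67. By these summed reads, 4 RBPs passed the exact permutation test in K562 cells, PUM2 and SF3B4 on the high side and FAM120A and PRPF8 on the low side (adjusted p = 0.035 for each). The part of repeated counting and of lower bounds in this was not tested. In HEK293 cells PUM2 had 21.9% ± 6.31 (SD, n = 2) and SF3B4 19.4% ± 1.38 of reads, and RBFOX2 2.78% and FAM120A 2.38%, and none passed.

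**Figure D1:**
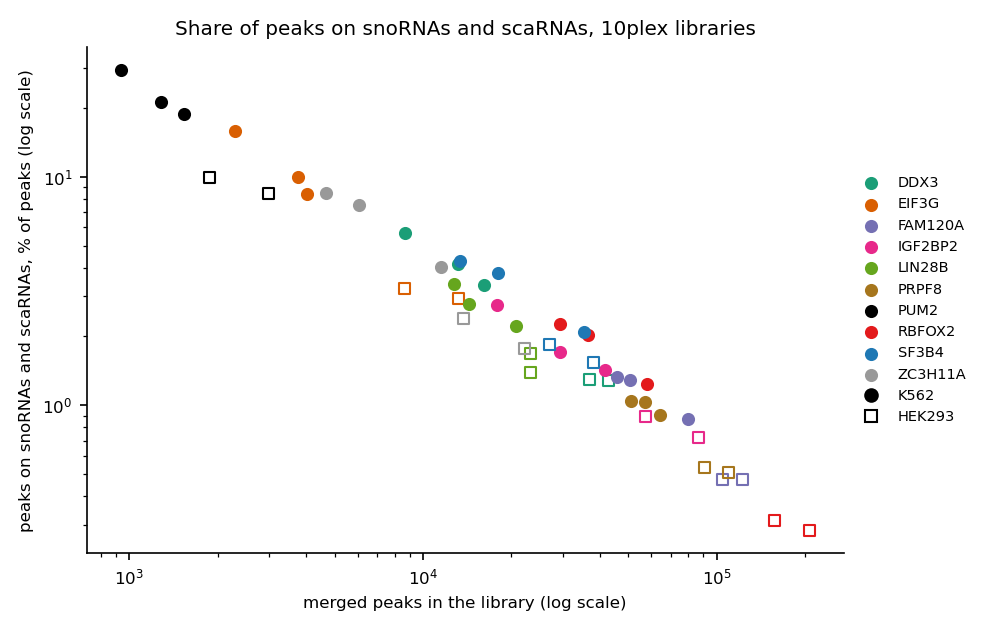
Share of peaks on snoRNAs and scaRNAs (y axis, % of the merged peaks, log scale) against the number of merged peaks (x axis, log scale) for the 50 10plex libraries, 1 point per library, coloured by RBP, with filled circles for K562 and open squares for HEK293. The share fell from 29.3% in the K562 PUM2 library of replicate 1 to 0.283% in a HEK293 RBFOX2 library.

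The K562 pools had higher shares than the HEK293 pools. The mean over the 10 libraries of a pool was 7.26%, 4.61% and 5.45% in K562 replicates 1, 2 and 3 and 2.23% and 1.97% in HEK293 replicates 1 and 2. The groups did not overlap. The difference of 3.67 percentage points gave p = 0.1 in an exact two-sided permutation of the cell line over pools, which is the smallest p that 3 against 2 pools allow. HEK293 pools held more merged peaks, 1191120 in 20 libraries against 748856 in 30 K562 libraries, and fewer members, 8986 against 15454.

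H/ACA genes took close to the same portion of peaks in most libraries. Among peaks on SNORD and SNORA symbols, the H/ACA share in K562 cells was 38.2% ± 1.74 for PUM2 (SD, n = 3) against 45.8% over the other 9 RBPs. The difference of −7.69 percentage points passed the test (exact permutation, p = 0.002, adjusted p = 0.02), and without any 1 pool it was −8.93 to −7.03 points. In HEK293 cells the PUM2 share was 39.0% against 44.3% (exact permutation p = 0.01, adjusted p = 0.1). The other values in K562 cells lay between 40.7% for LIN28B and 49.4% for ZC3H11A, both with an adjusted p of 0.0833 in the exact permutation test. Within pools the H/ACA share was higher in libraries with more reads (Spearman's rho 0.45 to 0.70 over 10 RBPs), and the part of depth was not tested.

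Nearly all members were enriched over the external background, which is the comparison in the merged peak lists. The methods give RNA-seq of the cell line or size-matched input (SMI) as backgrounds, and the files do not name which was used for a library. Its total of reads, recovered from the folds, was equal within 1% for 9 RBPs of a HEK293 pool and 17.5 and 23.7 times smaller for RBFOX2 in replicates 1 and 2. In the K562 pools it differed between RBPs by up to 9.83 to 10.02 times. In K562 libraries 96.5% to 99.7% of the members had at most 1 read in the background, and in HEK293 libraries 13.9% to 65.5%, with 57.3% and 65.5% for RBFOX2. Of the other peaks 84.9% to 98.7% had at most 1 read there in K562 libraries. In HEK293 libraries it was 6.46% to 74.0% of the other peaks, with 71.4% and 74.0% for RBFOX2. A nearly empty background was thus not particular to members. The call of an enriched peak asked for a fold above 8 and P below 0.001. Of all K562 10plex peaks 49.9% met this, and of the members 14990 of 15454 (97.0%). Of all HEK293 10plex peaks 34.7% met it, and of the members 8763 of 8986 (97.5%). Taken within libraries, the share of enriched members exceeded that of the other peaks by 37.2 percentage points in K562 cells (SD over RBPs 20.8, n = 10), from 0.636 for PUM2 to 64.9 for IGF2BP2. In HEK293 cells it exceeded it by 55.0 points (SD 11.7, n = 10), from 41.2 for PUM2 to 77.7 for RBFOX2. All 10 RBPs had a difference above 0 in both lines (exact two-sided sign flips over 10 RBPs, p = 0.00195). Here too the test takes RBPs of the same pools as independent, which they are not. In 7 of the 30 K562 libraries (PUM2 in 3 replicates, ZC3H11A in 2, DDX3 and SF3B4 in 1 each) over 95% of the other peaks were enriched too, and without these libraries the difference was 47.3 points over 9 RBPs (SD 11.5). Among peaks with at least 20 reads on both sides the difference shrank to 0.898 points in K562 cells (exact sign flips, p = 0.00391) and was 31.8 points in HEK293 cells.

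The complement control (CC) of a library holds the reads that its pool assigned to the 9 remaining barcodes, and over it the members stood on the other end. Of all K562 10plex peaks with a CC value 20.4% were enriched, and of the members 43 of 14784 (0.291%). Of all HEK293 peaks 13.3% were enriched, and of the members 1 of 7498 (0.0133%). Outside K562 replicate 3, these counts left out peaks whose P over the external background lay past the end of its scale. Members with the most reads were thus partly not counted. In the HEK293 FAM120A library of replicate 2, for example, 204 of 575 members lay past it. In 20 of 30 K562 and 19 of 20 HEK293 libraries no member was enriched. The difference from the other peaks of the library was −26.3 percentage points in K562 cells (SD over RBPs 10.7, n = 10), from −40.4 for PUM2 to −9.38 for RBFOX2. It was −18.1 points in HEK293 cells (SD 8.55, n = 10), from −28.7 for PUM2 to −5.57 for IGF2BP2. No RBP had a difference above 0 (exact two-sided sign flips over 10 RBPs, p = 0.00195 in both lines). Each library is part of the CC of the other 9, so the 10 differences are not independent, while the test takes them as if they were. Without the requirement on the fold, at P below 0.001 and any fold above 1, the difference was −13.7 points in K562 (p = 0.109, exact sign flips) and −5.60 points in HEK293 cells (p = 0.514, exact sign flips). The difference thus passed the test with the 8-fold requirement and not without it. Members also had more reads per peak than other peaks, and the part of this in a call by P was not tested.

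**Figure D2:**
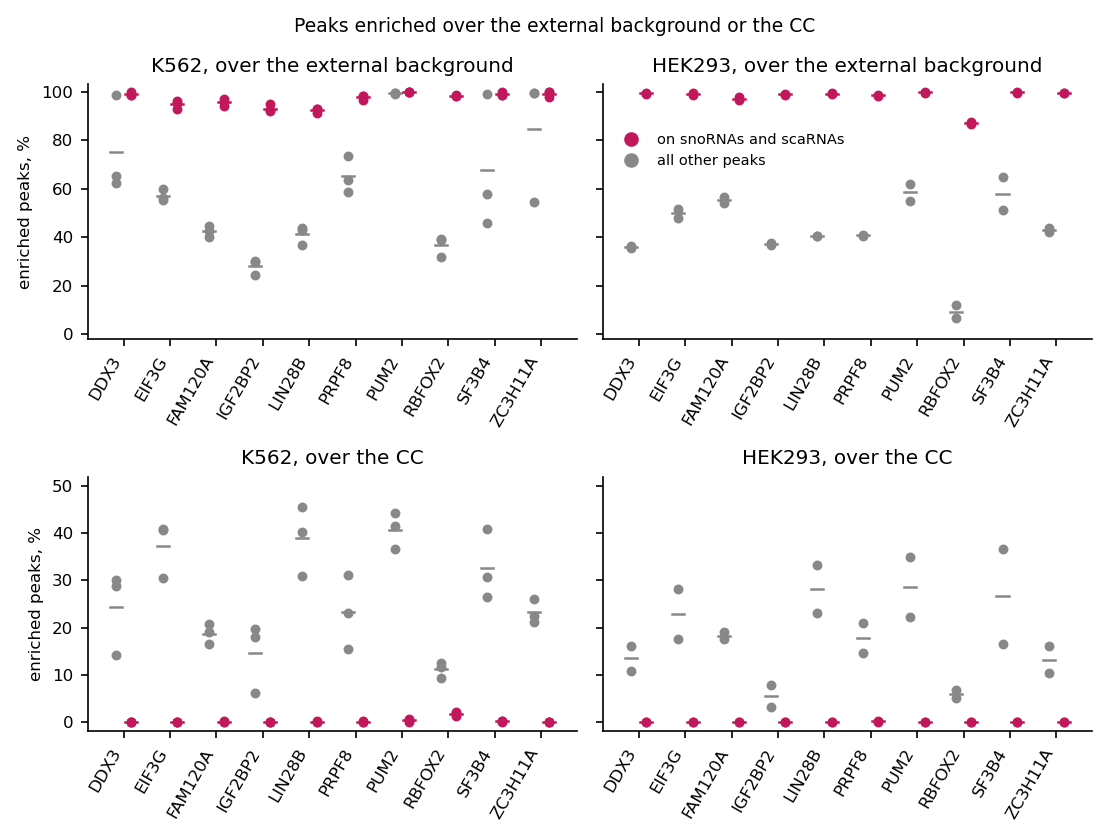
Percent of peaks enriched (y axis) for each of the 10 RBPs (x axis) over the external background (top) and over the CC (bottom), in K562 (left) and HEK293 (right) 10plex libraries. The y axes of the rows differ. Points are libraries and bars are means, with members in magenta and all other peaks in grey. Members lie between 86.8% and 100% over the external background and at or below 2.16% over the CC. Over the CC, peaks past the end of the P scale are left out except in K562 replicate 3.

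The few members that were enriched over the CC in K562 cells came mostly from RBFOX2. Of the 43 peaks 35 were from RBFOX2 libraries, on 13 genes, 3 from PUM2, 2 from SF3B4 and 1 each from FAM120A, LIN28B and PRPF8. The share over all RBFOX2 peaks in K562 cells was 11.2%. Of RBFOX2 members 27 of 252 on SCARNA genes were enriched (10.7%), 4 of 839 on H/ACA genes, 0 of 829 on C/D genes, which allows a share of up to 0.362%, and 4 of 30 on genes without such a symbol. The share on SCARNA genes was thus close to that over all RBFOX2 peaks. In HEK293 cells 0 of 1019 RBFOX2 members were enriched, which allows a share of up to 0.294%. The 1 enriched member of HEK293 cells was a PRPF8 peak on SNORA67 in replicate 1, with 99 reads, 51 reads in the CC and a log2 fold of 3.51. SCARNA1 (10 peaks) and SCARNA10 (5 peaks) were enriched for RBFOX2 in all 3 K562 replicates, and SCARNA6, SCARNA7, SNORA12 and the unnamed gene ENSG00000275146 in 2. The 10 SCARNA1 peaks were neighbouring pieces of 1 stretch, chr1:27834398-27834442. In replicate 2 these pieces had 367, 368 and 366 reads. Such pieces can share reads and were each counted as a peak in the counts and limits above.

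Taken without the 8-fold threshold, the log2 fold over the CC set classes apart for RBFOX2 and ZC3H11A in K562 cells, and no other RBP passed the tests below. It was taken from the highest peak with a CC value of each gene, and the median over the genes of a class gave 1 value per library. Outside K562 replicate 3, peaks whose P over the external background lay past the end of its scale were left out first. For genes with many reads the fold can therefore come from a lower peak than the reads given for the gene. Genes without a CC value in a library could not enter it. In every HEK293 library these included SNORD3A, SNORD118, SNORD13, SNORD14A and SNORA73A. In K562 cells SNORD118, SNORD13, SNORD14A and SNORA73A had a value in only 10 libraries. The medians thus rest on different sets of genes. For RBFOX2 there were 116, 116 and 132 C/D genes in K562 replicates 1, 2 and 3. For RBFOX2 in K562 cells the median was 0.19 ± 0.19 on C/D genes (SD, n = 3), 0.29 on H/ACA genes and 2.48 ± 0.14 on SCARNA genes. No other RBP of the K562 pools had a SCARNA median above 0.69, which was that of PUM2. SCARNA minus C/D was 2.29 ± 0.21 for RBFOX2 against −0.54 over the other 9 RBPs, a difference of 2.84 on the log2 scale (exact permutation, p = 0.001, adjusted p = 0.01), and 2.66 to 2.96 without any 1 pool. In HEK293 cells the RBFOX2 median was −1.26 ± 0.07 on C/D genes (SD, n = 2), −1.13 on H/ACA genes and 0.01 ± 0.12 on SCARNA genes. SCARNA minus C/D was 1.27 ± 0.05 there against −0.02 (exact permutation p = 0.01, the smallest possible, adjusted p = 0.1). This comparison and that of H/ACA with C/D genes below were chosen after the values had been seen.

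**Figure D3:**
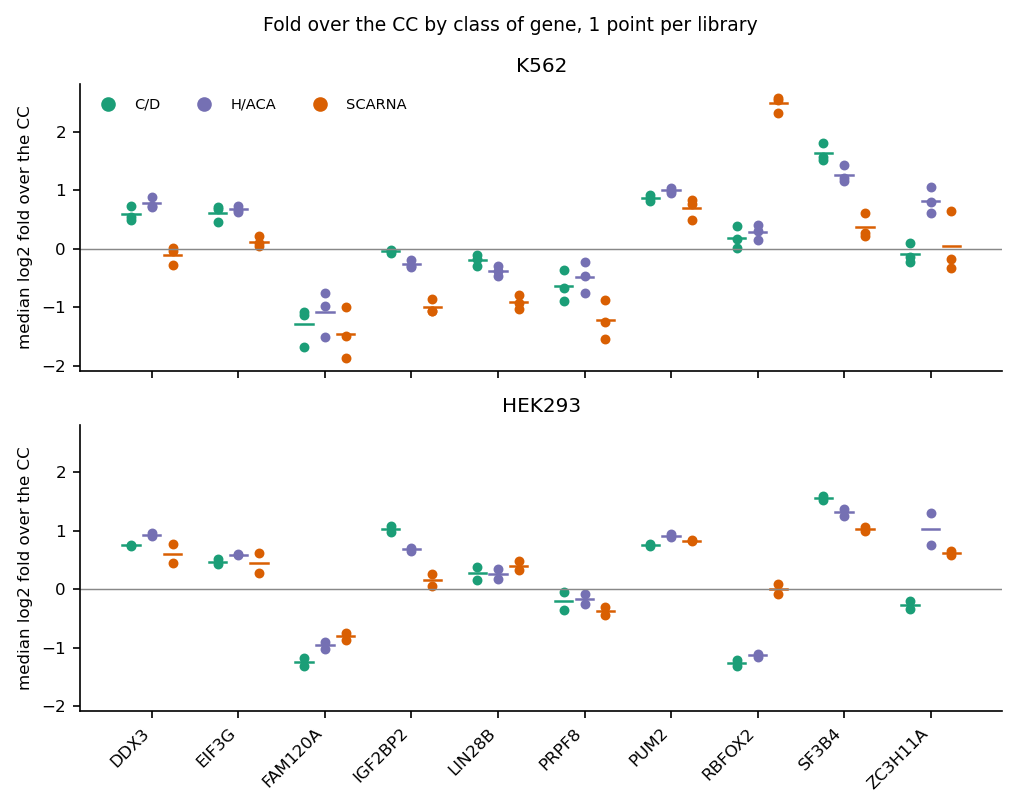
Median log2 fold over the CC (y axis) on C/D, H/ACA and SCARNA genes for each of the 10 RBPs (x axis), 1 point per library and bars for means, in K562 and HEK293 10plex libraries. The RBFOX2 medians on SCARNA genes average 2.48 in K562 cells and 0.01 in HEK293 cells. The ZC3H11A medians on H/ACA genes, 0.82 and 1.03, lie above those on C/D genes, −0.09 and −0.27.

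SCARNA1, in an intron of PPP1R8 at chr1:27834401-27834566 on the plus strand, had the highest RBFOX2 fold of the genes enriched in every K562 replicate. Its sequence is shown with capitals for the bases under a peak in all 3 K562 RBFOX2 libraries, 127 of 166 bases.
SCARNA1: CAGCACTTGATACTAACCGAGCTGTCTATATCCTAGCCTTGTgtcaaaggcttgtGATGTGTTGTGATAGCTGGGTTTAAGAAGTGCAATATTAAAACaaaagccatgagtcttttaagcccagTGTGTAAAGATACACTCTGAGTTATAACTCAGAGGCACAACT
The RBFOX2 libraries of K562 replicates 1, 2 and 3 had 263, 368 and 260 reads in their highest peak on SCARNA1, and the other 9 RBPs had 5 to 44. RBFOX2 thus held 69.2%, 69.4% and 59.6% of the reads of the 10 RBPs, where it had 18.1%, 17.2% and 14.04% of the reads of the pools. In HEK293 replicates 1 and 2 it had 92 and 83 reads, which were 30.7% and 32.2% of the reads on the gene and 26.0% and 25.9% of the pools. The log2 fold over the CC was 3.36 ± 0.11 in K562 (SD, n = 3) and 0.50 ± 0.14 in HEK293 cells (SD, n = 2). The other 9 RBPs had a median log2 fold of −0.89 on SCARNA1 in K562 cells, from −2.67 to 0.89.

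The other scaRNAs followed SCARNA1 in K562 cells. All 23 SCARNA genes with a value had a mean RBFOX2 log2 fold above 1, from 1.25 on SCARNA18 to 3.36, with a median of 2.33. All 23 lay above the median of the other 9 RBPs and 19 above their highest library. SCARNA7 had 3.07 ± 0.20, SCARNA10 3.07 ± 0.15, SCARNA6 3.04 ± 0.19, SCARNA13 2.83 ± 0.08 and SCARNA4 2.05 ± 0.09 (SD, n = 3 each). In replicates 1 and 2 the SCARNA7 fold did not come from the highest peak of the gene, which lay past the end of the P scale. In replicate 2 it came from a peak with 192 reads. On SCARNA7, in an intron of KPNA4, RBFOX2 had 982, 897 and 570 reads in its highest peak in K562 replicates 1, 2 and 3. These were 64.1%, 61.6% and 56.5% of the reads of the 10 RBPs, with its own reads as lower bounds. In HEK293 cells it had 192 and 328 reads there, or 36.0% and 37.6%. Of 22 SCARNA genes with a value in HEK293 cells, 10 had a mean RBFOX2 fold above 0 and 1 above 2-fold, from −1.23 to 1.93 on the log2 scale with a median of −0.03. On SCARNA13, which overlaps an exon of SNHG10, RBFOX2 had 0.23 ± 0.14 there (SD, n = 2). In HEK293 cells 3 of 21 lay above the median of the other 9 RBPs and none above their highest library.

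**Figure D4:**
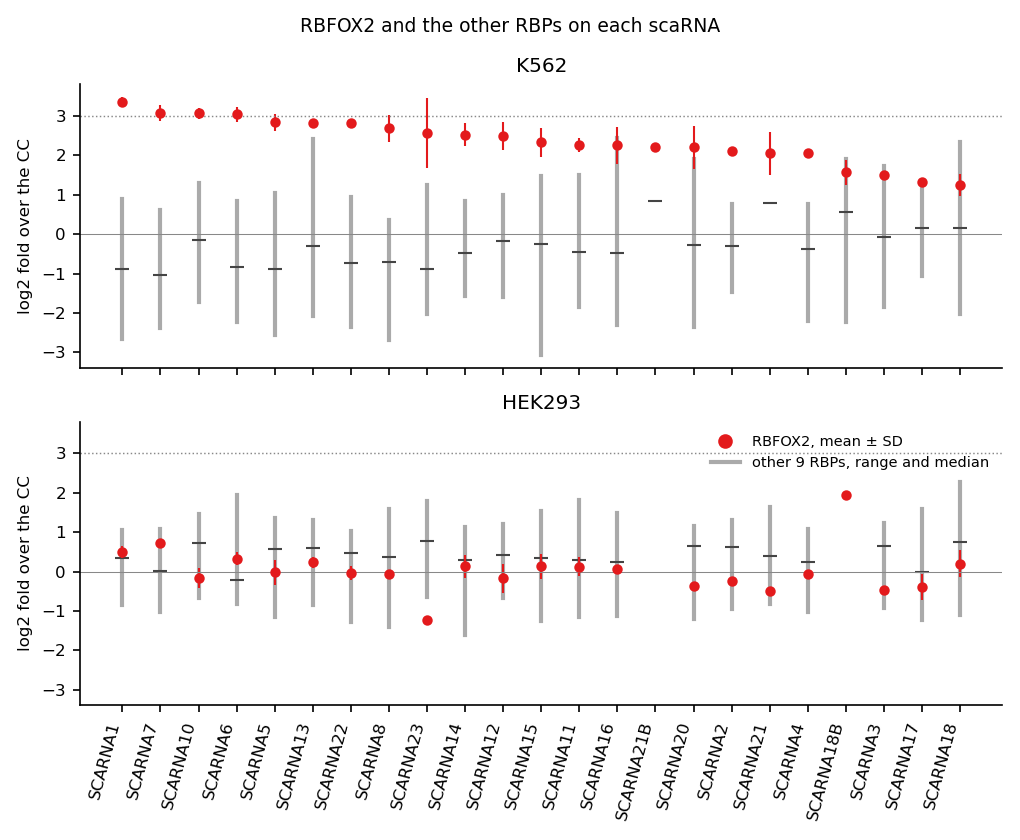
Log2 fold over the CC (y axis) of RBFOX2 (red points, mean ± SD over replicates) and of the other 9 RBPs (grey lines from the lowest to the highest library, with a dash at the median) on each scaRNA gene (x axis), in K562 and HEK293 10plex libraries. In K562 cells RBFOX2 lies above the median of the other RBPs on all 23 SCARNA genes with a value, in HEK293 cells on 3 of 21.

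GCATG, the letters RBFOX2 recognizes, did not pass the test of a higher share around RBFOX2 members than around those of the other RBPs. It was searched on the strand of the peak, in the peak with 50 nt added on both sides. In K562 cells 12.8% ± 0.634 of RBFOX2 members held it (SD, n = 3) against 12.4% over the other 9 RBPs (exact permutation, one-sided, p = 0.225). In HEK293 cells the shares were 13.4% ± 1.78 (SD, n = 2) and 12.8% (exact permutation, one-sided, p = 0.35). The direction was not stable, at −0.923 percentage points in K562 cells in the peak alone and −0.810 points in HEK293 cells without replicate 1. GCATG occurred in 7 of 24 annotated SCARNA genes (29.2%), 8.95% of C/D genes and 15.4% of H/ACA genes. The SCARNA1 sequence above holds no GCATG.

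ZC3H11A separated H/ACA from C/D genes in both lines. Its median log2 fold over the CC in K562 cells was 0.82 ± 0.22 on H/ACA genes and −0.09 ± 0.17 on C/D genes (SD, n = 3). H/ACA minus C/D was 0.91 ± 0.07 against 0.0065 over the other 9 RBPs (exact permutation, p = 0.001, adjusted p = 0.01), and the difference was 0.89 to 0.93 without any 1 pool. The statistic behind a fold has a solution above and one below the CC, and the reads of the other 9 libraries chose between them. Without the genes where those reads lay within 2-fold of the point between the solutions, a setting chosen after seeing the data, the difference was 1.61 (exact permutation, adjusted p = 0.01), more than 1.5 times the value over all genes. In HEK293 cells it was 1.29 ± 0.27 (SD, n = 2) against 0.04 (exact permutation p = 0.01, the smallest possible, adjusted p = 0.1). Of the H/ACA genes 98 of 104 had a mean above 0 in K562 cells and 96 of 103 in HEK293 cells. Of the C/D genes 43 of 127 and 31 of 113 did. SNORA80D had 2.04 ± 0.21 in K562 and 2.08 ± 0.19 in HEK293 cells, and SNORA80B had 1.94 ± 0.18 and 1.89 ± 0.49. SNORA24, with a mean of 205 reads in the K562 ZC3H11A libraries, had 1.91 ± 0.21. On the low side of the H/ACA genes SNORA26 had −0.42 ± 0.11 in K562 and −0.45 ± 0.12 in HEK293 cells. No ZC3H11A peak on an H/ACA gene passed 8-fold over the CC in K562 cells (0 of 580, which allows a share of up to 0.517%).

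SF3B4 lay above the CC on nearly every gene of both snoRNA classes. In K562 cells its mean log2 fold was above 0 on 130 of 130 C/D genes and on 107 of 109 H/ACA genes, with class medians of 1.63 ± 0.16 (SD, n = 3) and 1.27 and a SCARNA median of 0.37. In HEK293 cells the medians were 1.56, 1.31 and 1.02. FAM120A lay below the CC on nearly all of them. Its K562 medians were −1.29 on C/D, −1.08 on H/ACA and −1.45 on SCARNA genes, and its HEK293 medians −1.24, −0.96 and −0.81. PRPF8 was below 0 in all 3 classes in both lines, and PUM2, DDX3 and EIF3G were above 0 on C/D and H/ACA genes in both. On SNORA75, shown above, SF3B4 had a mean log2 fold of 1.82 ± 0.46 in K562 cells (SD, n = 2), ZC3H11A 1.04 ± 0.25 and FAM120A −0.95 ± 0.52.

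Among the other genes with a peak in all 50 10plex libraries were the C/D gene SNORD100, the H/ACA genes SNORA77B and SNORA44 and the scaRNA gene SCARNA2. SNORD100, in an intron of the ribosomal protein gene RPS12, had 47 to 1069 reads in K562 (median 313.5) and 25 to 1331 in HEK293 libraries (median 205.5). Its log2 fold over the CC in K562 cells was 1.17 ± 0.47 for SF3B4 (SD, n = 3), 0.90 ± 0.15 for RBFOX2 (n = 3) and −1.77 ± 0.50 for FAM120A (n = 2). The highest fold of a K562 library on it was from DDX3, at 1.83. DDX3 had 806, 693 and 673 reads on SNORD100 in K562 replicates 1, 2 and 3. SNORA44, which overlaps an exon of SNHG12, had 29 to 492 reads in K562 (median 171.0) and 14 to 386 in HEK293 libraries (median 147.5). On it SF3B4 had a log2 fold of 1.36 ± 0.21 in K562 (SD, n = 3) and 1.40 ± 0.10 in HEK293 cells (SD, n = 2), ZC3H11A 1.32 ± 0.16 and 1.36 ± 0.06, and FAM120A −0.78 ± 0.35 and −0.99 ± 0.23. SF3B4 and ZC3H11A thus lay above 0 and FAM120A below 0 on SNORA44, as on SNORA75 in K562 cells. SNORA77B, which overlaps an exon of RANBP1, had 39 to 845 reads in K562 (median 225.5) and 11 to 270 in HEK293 libraries (median 76.0). The ZC3H11A fold on it was 1.01 ± 1.07 in K562 cells, from −0.13 to 1.99, and 1.62 ± 0.35 in HEK293 cells. SCARNA2 had 45 to 1751 reads in K562 (median 152.5) and 18 to 407 in HEK293 libraries (median 119.5), with RBFOX2 highest in both. These reads are not scaled to the share of an RBP in its pool. The highest log2 fold over the CC on SCARNA2 was 2.11 in K562 cells, for RBFOX2, and 1.31 in HEK293 cells, for EIF3G. SCARNA13 had a peak in 29 of 30 K562 and 20 of 20 HEK293 libraries, with at most 350 and 115 reads, both in RBFOX2 libraries.

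SNORD52 went against the FAM120A pattern. It was the 1 gene of 131 C/D genes with a FAM120A mean above 0 in K562 cells, at a log2 fold of 1.69, a value from replicate 3 alone. By reads the gene stood out in all replicates. FAM120A had 3488, 4429 and 2255 reads on it as lower bounds in K562 replicates 1, 2 and 3, and the other 9 RBPs 25 to 896. FAM120A held 60.5%, 61.1% and 51.9% of the reads of the 10 RBPs on SNORD52, with 30.2%, 36.8% and 25.1% of the reads of the pools. In HEK293 replicates 1 and 2 it had 429 and 817 reads, or 38.9% and 46.2%, with 25.0% and 24.6% of the pools. SNORD52 overlaps an exon of SNHG32, and reads of the snoRNA and of its host cannot be told apart in these files. The reads of FAM120A are lower bounds in HEK293 cells too, and those of SF3B4 and RBFOX2 in K562 cells, so the shares are uncertain. The gene was named by its rank among the C/D genes, and its FAM120A value was picked out after it had been seen.

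The peaks left the 5′ end of C/D and H/ACA genes least covered. Each gene was divided into 10 segments of equal length, and the percent of bases under a peak was averaged over genes and libraries with a peak. In K562 cells the first, the fifth and the last segment of C/D genes were covered to 43.3%, 89.6% and 66.6%. In H/ACA genes it was 15.8% in the first segment, 78.2% in the fifth, 81.1% in the eighth and 75.9% in the last. In SCARNA genes coverage was 41.7% in the first and 78.8% in the last segment. In HEK293 cells the first and last segment had 44.3% and 54.1% in C/D, 16.3% and 64.6% in H/ACA and 33.0% and 68.1% in SCARNA genes. Over the 10 RBPs the first segment of H/ACA genes was covered to 12.8% to 18.2% in K562 and 12.2% to 18.8% in HEK293 cells, less than any other segment of these genes for every RBP. Peaks lay wholly inside the gene for 74.9% of C/D, 74.6% of H/ACA and 67.5% of SCARNA members in K562 cells and for 76.5%, 75.6% and 68.0% in HEK293 cells. For genes with a peak in both libraries of a pair, bases under a peak in both were divided by bases under a peak in either. The median of this share was 89.3% for different RBPs of the same K562 pool. It was 81.6% for the same RBP in different K562 pools. In HEK293 cells these were 83.6% and 81.7%.

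**Figure D5:**
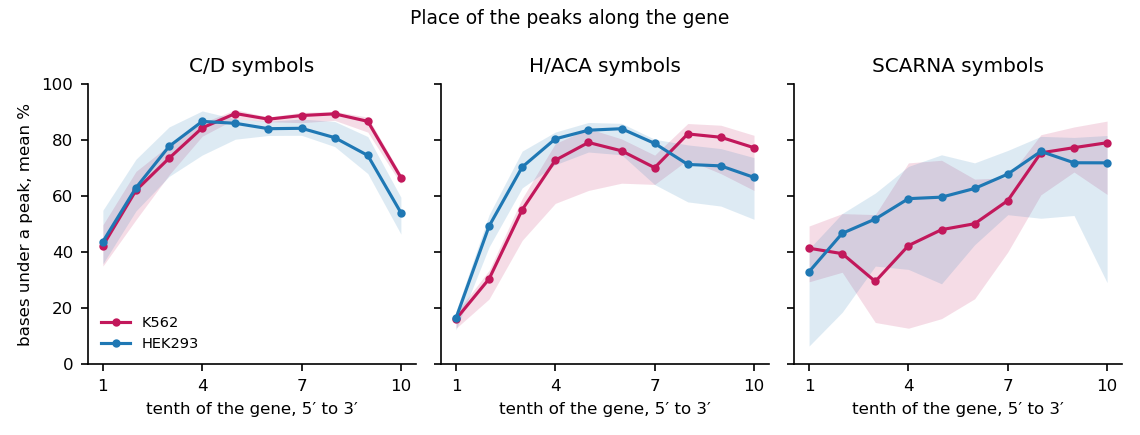
Percent of bases under a peak (y axis, mean over genes with a peak) in each of 10 equal segments of the gene from 5′ to 3′ (x axis), for C/D, H/ACA and SCARNA genes, with lines for the median over the 10 RBPs and bands from the lowest to the highest RBP, in K562 and HEK293 10plex libraries. The first segment of H/ACA genes is covered to 15.8% in K562 and 16.3% in HEK293 cells as a mean, that of C/D genes to 43.3% and 44.3%.

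Most of the snoRNAs listed for processing of precursor ribosomal RNA had peaks in nearly all 10plex libraries, with SNORD13 and SNORD14D as exceptions. SNORD3A, which encodes U3, lies outside other genes at chr17:19188016-19188714 on the plus strand and had 35 to 2234 reads in its highest peak in K562 libraries (median 235.5) and 246 to 5491 in HEK293 libraries (median 1921.5), as lower bounds in 12 of 30 and 20 of 20 libraries. Its highest peak had 24.7 ± 25.5 of 10000 reads summed over peaks in K562 pools (SD, n = 3), from 8.95 to 54.1, and 79.8 ± 26.7 in HEK293 pools (SD, n = 2), from 60.9 to 98.8. The highest K562 value came from replicate 3, where for example SF3B4 had 2234 reads on it, after 489 and 791 in replicates 1 and 2. SNORD3A belongs to a family of near-identical copies, and reads that map to several places were removed, so its level is uncertain. SNORD118 (U8) had a peak in 29 of 30 K562 and 20 of 20 HEK293 libraries, SNORD13 (U13) in 27 and 15, SNORD22 (U22) in 30 and 20, and SNORA73A and SNORA73B (U17) in 30 and 19 and in 29 and 18.

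SNORD14D set the cell lines apart. The SNORD14 genes encode copies of U14, and SNORD14C, SNORD14D and SNORD14E all lie in HSPA8, a gene for a constitutive chaperone. SNORD14D at chr11:123058909-123058995 on the minus strand had a peak in 30 of 30 K562 10plex libraries, with 9 to 244 reads and a median of 45. It had none in 20 HEK293 10plex libraries and in both RBFOX2 singleplex libraries of HEK293 cells, and it had one in both SLBP singleplex libraries of K562 cells. SNORD14C and SNORD14E had peaks in all libraries of both lines, with medians of 187.5 and 273.5 reads in K562 and 142.0 and 114.0 in HEK293 libraries. SNORD14A and SNORD14B lie in RPS13, a gene for a ribosomal protein. SNORD14A had a peak in 29 of 30 K562 libraries, with at most 253 reads (median 36.0), and in 20 of 20 HEK293 libraries, with 5 to 172 reads (median 51.5). SNORD14B had one in all libraries, with 8 to 358 reads in K562 (median 57.5) and 10 to 213 in HEK293 libraries (median 52.5). In all, 14 genes had peaks only in K562 and 14 only in HEK293 10plex libraries. Most were rare, and of the others SNORA63B (EIF4A2) had a peak in 16 of 30 K562 libraries and SNORA47 (ZBED3) in 19 of 20 HEK293 libraries. A missing peak says only that CLIPper called none, and copies with near-identical sequence lose reads that map to several places.

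The singleplex libraries also had peaks on snoRNAs and scaRNAs. In RBFOX2 singleplex ABC, 480 of 339302 and 428 of 192738 merged peaks were members (0.142% and 0.222%), with 0.692% and 1.04% of the reads summed over peaks. Of all RBFOX2 singleplex peaks 10% were enriched over the external background, and of the members 637 of 908 (70.2%). SNORD45C had 494 and 596 reads in replicates 1 and 2, SNORD3A 427 and 364, and SCARNA2 412 and 360. Their log2 folds over the external background were 8.14 and 9.26, 7.93 and 8.55, and 6.88 and 7.53. SCARNA1 had 71 and 23 reads there, below each of these. In SLBP singleplex ABC, 284 of 4445 and 132 of 1743 merged peaks were members (6.39% and 7.57%), with 6.47% and 4.60% of the reads summed over peaks. Of all SLBP peaks 55.3% were enriched, and of the members 392 of 416 (94.2%). SNORD100, in RPS12, had 149 and 37 reads, SNORD48 141 and 21, and SNORD3A 133 and 22. The 2 singleplex sets differ in RBP, cell line and depth together, so these cannot be told apart.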

How the data were processed

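The members and lists were chosen with earlier results of these data known. The genes named were, by rule, for each of SNORD, SNORA and SCARNA the 4 with a peak in the most 10plex libraries, for each RBP the gene enriched over the CC in all 3 K562 replicates with the highest fold, the top 3 of each singleplex set, snoRNAs of precursor ribosomal RNA processing, and the imprinted clusters as counts. Other genes named were chosen after their values were seen. 1 of the genes under this rule is not reported here.

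Per the study's methods and the submitters' processing notes, the authors trimmed reads (cutadapt 2.8), removed reads of repetitive elements, aligned the rest with STAR 2.7.6 to GRCh38, kept reads that map to a single place, collapsed PCR duplicates and let CLIPper call peaks. Losing multi-mapped and repeat reads lowers counts for snoRNAs with near-identical copies. For each peak the authors deposited a p-value from CLIPper, a display score that was not used, and a name that can hold the read number. The merged peaks were deposited with a −log10 P, at most 400, and a log2 fold over an external background. The methods give RNA-seq of the cell line or SMI as backgrounds, and the sources used here do not name which for each library. Against the CC the authors deposited a log2 fold with a −log10 P for K562 replicate 3, and for the other pools, without peaks in repeats, a p-value and the chi-squared statistic behind it. Positions that the HEK293 CC lists hold several times were counted once. Outside K562 replicate 3, peaks past the end of the P scale of the merged lists were left out of the main comparisons with the CC.

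Whole reads per peak were recovered from the deposited log2 folds and P (lower bounds past a −log10 P of 88 for the chi-squared and 307 for the exact test), and the CC reads from the chi-squared statistic, whose direction was set by the reads of the other 9 libraries. Set against K562 replicate 3, where the fold was deposited, 93.3% to 100% of a library's members with P below 0.001 over the CC kept their direction. Members with a higher P were not part of this check in that replicate. There 17 members were enriched in the deposited values and 21 from the statistic. In the merged lists 13665 to about 4395000 reads were summed per library, and a read that spans adjacent peaks was counted in each. Limits for a count of 0 rest on 3 counts and cover counting error only. They take peaks as independent, though adjacent peaks of a gene can share reads.

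Gene models were GENCODE 44, and the authors used an earlier release. A peak on several genes went to a gene with a SNORD, SNORA or SCARNA symbol first and then to the largest overlap. RBPs were compared by exact permutation of labels within pools, members with other peaks by exact sign flips over 10 RBPs, and cell lines by exact permutation over pools, in Python 3.11.15 with numpy 2.4.6 and scipy 1.17.1, with Benjamini-Hochberg adjustment over 10 RBPs at a threshold of 0.05. These tests and the recovery of reads were tested on simulated data. Alternatives were another overlap, named genes alone, other thresholds, at least 20 reads, read shares, each replicate left out and no replicate block. The replicate number marks a pool from 1 lysate, so it was the block of the main tests. All libraries were used.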

Additional observations from a re-analysis of the deposited data

Results flagged for a closer look

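For 3 RBPs the median log2 fold over the CC of a class of genes lay on opposite sides of 0 in the 3 K562 and the 2 HEK293 replicates, with every replicate of a line on the same side. These differences were not tested, and a fold over the CC also moves with what the other 9 RBPs of the pool bind and with their shares of its reads. K562 minus HEK293 was 1.45 for RBFOX2 on C/D genes, from values of 0.01 to 0.38 in K562 and −1.32 to −1.21 in HEK293 cells. It was 1.41 for RBFOX2 on H/ACA genes, from 0.15 to 0.40 and −1.15 to −1.10. For LIN28B it was −0.46 on C/D genes, −0.64 on H/ACA genes and −1.32 on SCARNA genes. For IGF2BP2 it was −1.06 on C/D genes, −0.95 on H/ACA genes and −1.15 on SCARNA genes. RBFOX2 held 14.04% to 18.1% of the reads of the K562 pools and 25.9% and 26.0% of the HEK293 pools, and the part of that difference was not tested.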

How the results depend on the processing

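Of 145 values recomputed under another setting, 116 kept their direction and their side of the threshold. By the share of reads summed over peaks in place of peaks, 4 RBPs passed in K562 cells in place of 1. Leaving out a K562 replicate took the number of RBPs past the threshold from 1 to 0 in each of the tests of the share, the H/ACA share, the H/ACA minus C/D fold and the SCARNA minus C/D fold (range 0 to 0), since 2 pools cannot reach it. For GCATG around RBFOX2 members, the difference in percentage points was −0.923 in K562 cells in the peak alone, and −0.810 to 1.91 in HEK293 cells with 1 replicate left out. For the enriched share over the CC with any fold above 1, the difference was −13.7 points in K562 (exact p = 0.109) and −5.60 points in HEK293 cells (exact p = 0.514), and over the settings run it ranged from −33.8 to −11.0 and from −29.1 to −7.24 points where the call held. Without genes near the point between the solutions of the statistic, a setting chosen after seeing the data, ZC3H11A minus the other 9 RBPs for H/ACA minus C/D was 1.61 in place of 0.91 in K562 cells (exact permutation, adjusted p = 0.01 in both) and 2.50 in place of 1.26 in HEK293 cells (adjusted p = 0.1 in both), and RBFOX2 for SCARNA minus C/D was 3.06 in place of 2.84 and 1.11 in place of 1.29 (adjusted p = 0.01 and 0.45). The cause was not tested. For the pairing by pool, without the replicate block the number of RBPs past the threshold was 1 in each of these tests in K562 and 0 in HEK293 cells, with an exact p of 0.000246 for PUM2 in the share, and GCATG had an exact p of 0.229 in K562 and 0.337 in HEK293 cells. In HEK293 cells no RBP could pass, as 2 pools allow no exact p below 0.01 and no adjusted p below 0.1 for a single RBP. A 10plex library had peaks on 151 to 269 genes, and a gene without a peak in a shallow library was not detectable at that depth.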
